A study of Caenorhabditis elegans with 2 samples.

Results

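Genes at the branch point of phosphoenolpyruvate and pyruvate were examined for HIF-1 binding. They are 10 of 19985 protein-coding genes and were taken by name from the Ensembl gene models of Caenorhabditis elegans. They are the phosphoenolpyruvate carboxykinase genes pck-1, pck-2 and pck-3, the pyruvate carboxylase gene pyc-1, the pyruvate kinase genes pyk-1 and pyk-2, the lactate dehydrogenase gene ldh-1, the pyruvate dehydrogenase kinase gene pdhk-2, and the pyruvate dehydrogenase subunit genes pdha-1 and pdhb-1. For each gene, every peak summit from 5000 bp upstream of the gene start to 1000 bp past the gene end was collected, a stretch called the gene window here. All 10 genes matched the annotation.

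The libraries were chromatin immunoprecipitations of 1 group, whole L4 larvae (hermaphrodites, strain OR3350), in 2 biological replicates. The animals carried HIF-1 with a GFP-FLAG tag at its C-terminal end, were synchronised as starved first-stage larvae and were collected 55 h later. Their chromatin was precipitated with an antibody against GFP, while the antibody label of both samples names hif-1. The line is transgenic and stable per the labels, which do not say whether untagged HIF-1 was also present. The labels name no oxygen condition, and with 1 group no comparison between conditions was possible. Whole animals were used, so a peak cannot be placed in a tissue. The thresholded list, which holds peaks that passed an irreproducible discovery rate analysis, had 631 summits, and the relaxed lists had 6541 for the pooled reads, 13935 for replicate 1 and 13823 for replicate 2. The relaxed lists hold background by design. Signal values are the authors' own, on a scale that differs between lists, so that between replicates only ranks are compared. The sequencing depth is unknown.

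HIF-1 is the worm hypoxia-inducible factor, a transcription factor that accumulates when oxygen is low and binds the hypoxia response element, whose core is ACGTG or GCGTG. Phosphoenolpyruvate carboxykinase makes phosphoenolpyruvate from oxaloacetate, pyruvate kinase turns phosphoenolpyruvate into pyruvate, and pyruvate carboxylase returns pyruvate to oxaloacetate. Pyruvate otherwise goes to lactate, by lactate dehydrogenase, or into the citric acid cycle, by the pyruvate dehydrogenase complex, which its kinase switches off. In mammals, genes of lactate dehydrogenase and of a pyruvate dehydrogenase kinase are textbook targets of HIF-1.

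Of the 10 genes, 6 had a thresholded summit in the gene window, namely pck-1, pck-2, pyc-1, pyk-1, ldh-1 and pdhk-2, against 5.72% of all protein-coding genes. Windows differ in length, and among genes with windows within 10% of the length of each of the 10 the share was 4.87% to 7.64%. These 6 windows held 10 thresholded summits. A summit lay in the promoter, taken as 1000 bp upstream to 200 bp downstream of the gene start, at 3 of the 10 genes, pck-1, pyc-1 and pdhk-2, against 1.97% of all protein-coding genes. By nearest protein-coding gene start the genes with a summit were 4, these and ldh-1, against 2.74% of all. The thresholded summits at pck-2 and pyk-1 lay closer to other genes. The genes pck-3, pyk-2, pdha-1 and pdhb-1 had no thresholded summit. No test of the list was made, because its members were chosen with earlier results of these data known.

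The sequences around the summits that lie at the genes are given first, 50 bp to either side of the summit, on the plus strand of ce11, from the RefSeq copy of the WBcel235 assembly. Capitals mark the core of the hypoxia response element, ACGTG or GCGTG read on either strand (CACGT or CACGC on the printed strand). The first 4 show the sites nearest to the gene starts of the 4 genes with a summit of their own.
pck-1, 978 bp upstream (chrIII:67188-67288): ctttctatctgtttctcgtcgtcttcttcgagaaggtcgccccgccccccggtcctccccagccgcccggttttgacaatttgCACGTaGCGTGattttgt
pyc-1, 87 bp upstream (chrV:11822566-11822666): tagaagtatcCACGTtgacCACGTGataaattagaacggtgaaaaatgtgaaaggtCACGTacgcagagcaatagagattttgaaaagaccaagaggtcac
ldh-1, 427 bp downstream (chrII:11724581-11724681): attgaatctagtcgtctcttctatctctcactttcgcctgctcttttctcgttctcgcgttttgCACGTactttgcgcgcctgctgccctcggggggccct
pdhk-2, 191 bp upstream (chrIII:8741553-8741653): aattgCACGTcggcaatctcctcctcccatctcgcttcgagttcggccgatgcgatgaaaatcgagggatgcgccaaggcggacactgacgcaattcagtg
The next is the other upstream site of pyc-1, shown because it has no core within 50 bp.
pyc-1, 1691 bp upstream (chrV:11824170-11824270): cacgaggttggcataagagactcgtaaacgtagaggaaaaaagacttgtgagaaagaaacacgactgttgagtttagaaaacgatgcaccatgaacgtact
The last pair lies past the end of pck-1 and is shown because each holds the palindrome CACGTG, which reads as the core on both strands and counts as 2 matches.
pck-1, 652 bp past the gene end (chrIII:62186-62286): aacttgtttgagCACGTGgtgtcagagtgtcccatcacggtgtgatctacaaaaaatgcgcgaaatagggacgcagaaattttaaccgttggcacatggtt
pck-1, 448 bp past the gene end (chrIII:62390-62490): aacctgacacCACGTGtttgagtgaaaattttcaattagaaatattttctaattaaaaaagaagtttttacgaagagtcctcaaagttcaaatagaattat

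The carboxykinase genes differed among themselves, from a strong upstream site at pck-1 to no thresholded summit at pck-3. The gene pck-1 (chromosome III, 62888 to 66260, minus strand) had the highest signal of the 10 genes. Its summit 978 bp upstream of the gene start had a signal of 272 in the thresholded list, where it ranked 34 of 631. The same place ranked 28 in replicate 1, with a signal of 167, and 46 in replicate 2, with a signal of 106, and the summits of both replicates lay within 2 bp of it. It was intergenic, and pck-1 had the nearest gene start, with spt-4 farther away. The cores in the printed sequence lie 1013 and 1019 bp upstream of the gene start, with 1 base between them, and the promoter window, which ends at 1000 bp, held none.

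A pair of weaker thresholded summits lay past the other end of pck-1. They were 652 and 448 bp past the gene end, with signals of 82.9 and 54.4 and ranks of 272 and 624. The nearest gene start was that of btb-5, 1091 and 1295 bp away. Replicate 2 had both, at ranks 138 and 302. Replicate 1 had a summit within 100 bp of the weaker one only, at rank 1277, with a signal of 21.1. The replicates also differed in the pck-1 coding sequence, where replicate 2 had no summit. The strongest of replicate 1 there lay 274 bp downstream of the gene start, at rank 728 with a signal of 27.3. Its others lay 72, 2644 and 2892 bp downstream, at ranks 1763, 4393 and 7214. The pooled list gave the place of the strongest a signal of 26.7, far below the lowest thresholded value of 54.1.

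The second carboxykinase gene, pck-2 (chromosome I, 7866136 to 7872100, plus strand), had 1 thresholded summit, 258 bp past its gene end, in coding sequence of the neighbouring gene suro-1. Its signal was 72.5, rank 352, and it ranked 453 in replicate 1 and 276 in replicate 2. At the gene start itself the pooled list held a summit 221 bp downstream, in the 5′ UTR of pck-2, with a signal of 35.7, rank 1464. That place ranked 926 in replicate 1 and 5780 in replicate 2. A further pooled summit of 45.7, rank 869, lay 1715 bp downstream in an intron of pck-2 and in coding sequence of R11A5.6, 67 bp from the start of R11A5.6. Neither place held a core within 50 bp. The third carboxykinase gene, pck-3 (chromosome IV, 5896641 to 5899112, plus strand), had no summit in the pooled list or in replicate 1, and replicate 2 had 2 there, at ranks 3616 and 11236.

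The gene pyc-1 (chromosome V, 11817783 to 11822529, minus strand) is the only pyruvate carboxylase gene of the list and had 3 thresholded summits, as many as pck-1. The summit 87 bp upstream had a signal of 112, rank 153, and ranked 133 in replicate 1 and 184 in replicate 2. The summit 1691 bp upstream had 120.1, rank 135, and ranked 96 in replicate 1 and 202 in replicate 2. The order of the pair therefore differed between the replicates. The upstream summit was 1542 bp from the start of D2023.4, slightly closer than to pyc-1, in sequence with no annotated gene. The third summit, 497 bp past the gene end, had a signal of 57.6, rank 560, and ranked 529 in replicate 1 and 657 in replicate 2. Inside the gene, replicate 1 had summits 2014 and 1753 bp downstream of the start at ranks 665 and 818, upstream of a further transcript start at 2140 bp, and replicate 2 had none within 100 bp of the pooled summits there.

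The 2 pyc-1 sites upstream of the gene differed in sequence. The promoter of pyc-1 held 10 core matches, more than any other of the 10 genes, against a median of 2 and a 90th percentile of 5 over the 19973 promoters of nuclear protein-coding genes. Of these matches, 4 lay within 50 bp of the summit 87 bp upstream, 2 of them in 1 palindrome CACGTG, and the nearest was 8 bp from the summit. The site 1691 bp upstream had no match within 50 bp, and its nearest was 93 bp away.

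The pyruvate kinase genes had no thresholded summit of their own. In the window of pyk-1 (chromosome I, 9168432 to 9177488, plus strand) the only one lay 4876 bp upstream, in the 5′ UTR of eef-2, which encodes translation elongation factor 2, and 25 bp from the eef-2 start. Its signal was 65.3, rank 425, with ranks of 615 in replicate 1 and 398 in replicate 2. Closer to pyk-1, the pooled list had summits 1907 bp upstream with a signal of 41.0, rank 1087, and 1044 bp upstream with 37.7, rank 1300. The nearer one ranked 1301 in replicate 1 and 1700 in replicate 2, and the farther one 5386 and 718. The promoter of pyk-1 held no core. For pyk-2 (chromosome IV, 10909913 to 10913078, plus strand) the highest pooled signal was 25.3, rank 3714, at 3008 bp downstream, and a summit 54 bp downstream of the start, with 22.7 in the pooled list and rank 4469 in replicate 1, had no counterpart in replicate 2. The promoter of pyk-2 held no core either. Of the pooled summits named here, the one 3008 bp downstream at pyk-2 held 2 cores within 50 bp and lay 460 bp from the start of ZK593.2. The one 1907 bp upstream of pyk-1 held 1, and those 1044 bp upstream of pyk-1 and 54 bp downstream at pyk-2 held 0.

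The gene ldh-1 (chromosome II, 11724204 to 11726533, plus strand) had 1 thresholded summit with a signal of 122.6, rank 130, the second highest among the 10 genes. It ranked 107 in replicate 1, with a signal of 75.0, and 165 in replicate 2, with a signal of 52.1. It lay 427 bp downstream of the gene start, in an intron, outside the promoter window. The annotation has a further ldh-1 transcript that starts 1121 bp downstream of the gene start, so that the summit lies inside the longer transcript and upstream of the shorter one. The core lay 16 bp from the summit, in TACGTG on the minus strand.

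**Figure D1:**
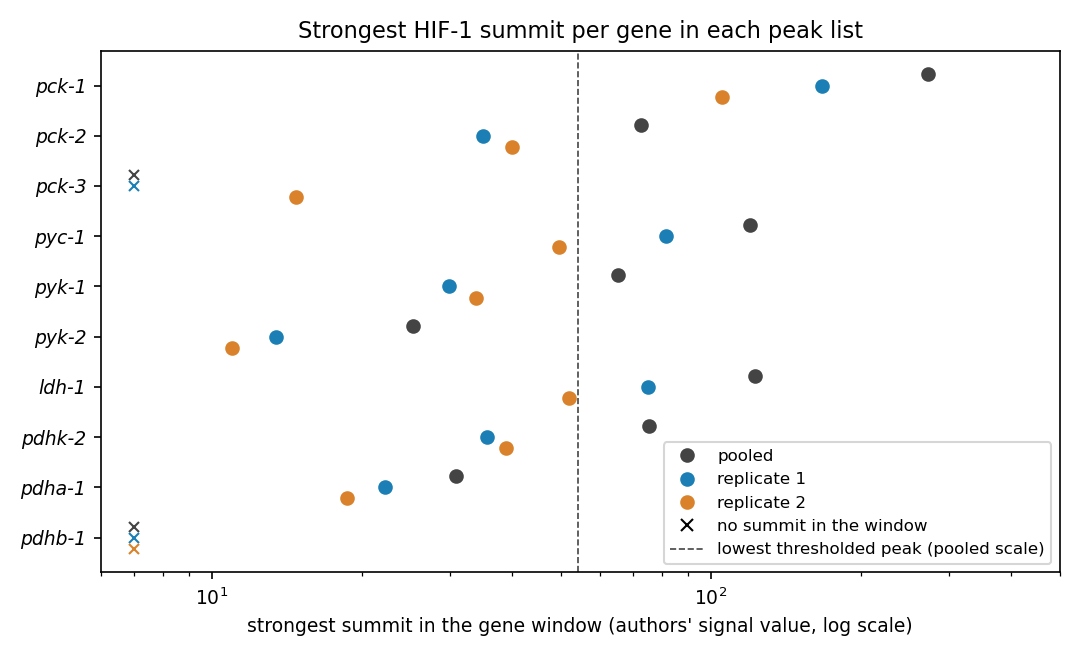
Strongest summit in the window of each gene in the pooled list and in each replicate, as the authors' signal value on a log axis. Points are single values, crosses mark windows without a summit, and the dashed line is the lowest thresholded signal, 54.1. The pooled points of pck-1, pck-2, pyc-1, pyk-1, ldh-1 and pdhk-2 lie to its right.

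Around pyruvate dehydrogenase, the kinase gene had a thresholded summit in its window and the subunit genes did not. As 5.72% of all protein-coding genes had one, its absence does not set the subunit genes apart. The gene pdhk-2 (chromosome III, 8737686 to 8741412, minus strand), whose product inactivates the complex by phosphorylation, had a summit 191 bp upstream with a signal of 75.1, rank 331, and ranks of 442 in replicate 1 and 293 in replicate 2. The summit of replicate 2 was 58 bp from it, the second largest offset among the 10 thresholded summits after 69 bp at the site 1691 bp upstream of pyc-1. The promoter of pdhk-2 held 4 core matches, 1 of them within 50 bp, at 43 bp from the summit. The gene pdha-1 (chromosome II, 8066285 to 8068184, plus strand), which encodes the E1 alpha subunit that the kinase modifies, reached 30.9 in the pooled list, rank 2119, at 14 bp past the gene end, in the 3′ UTR of gpcp-2. Replicate 1 had that site at rank 1133, and replicate 2 had none within 100 bp. A pooled summit of 24.2, rank 4275, lay in its coding sequence 880 bp downstream of the start, where replicate 2 had one at rank 1745 and replicate 1 had none within 100 bp. Its promoter held 3 core matches and no summit of any list. The gene pdhb-1 (chromosome IV, 3399672 to 3403908, plus strand), for the E1 beta subunit, had no summit in any list across a window of 10237 bp, as had 18.9% of protein-coding genes, and no core in its promoter.

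**Figure D2:**
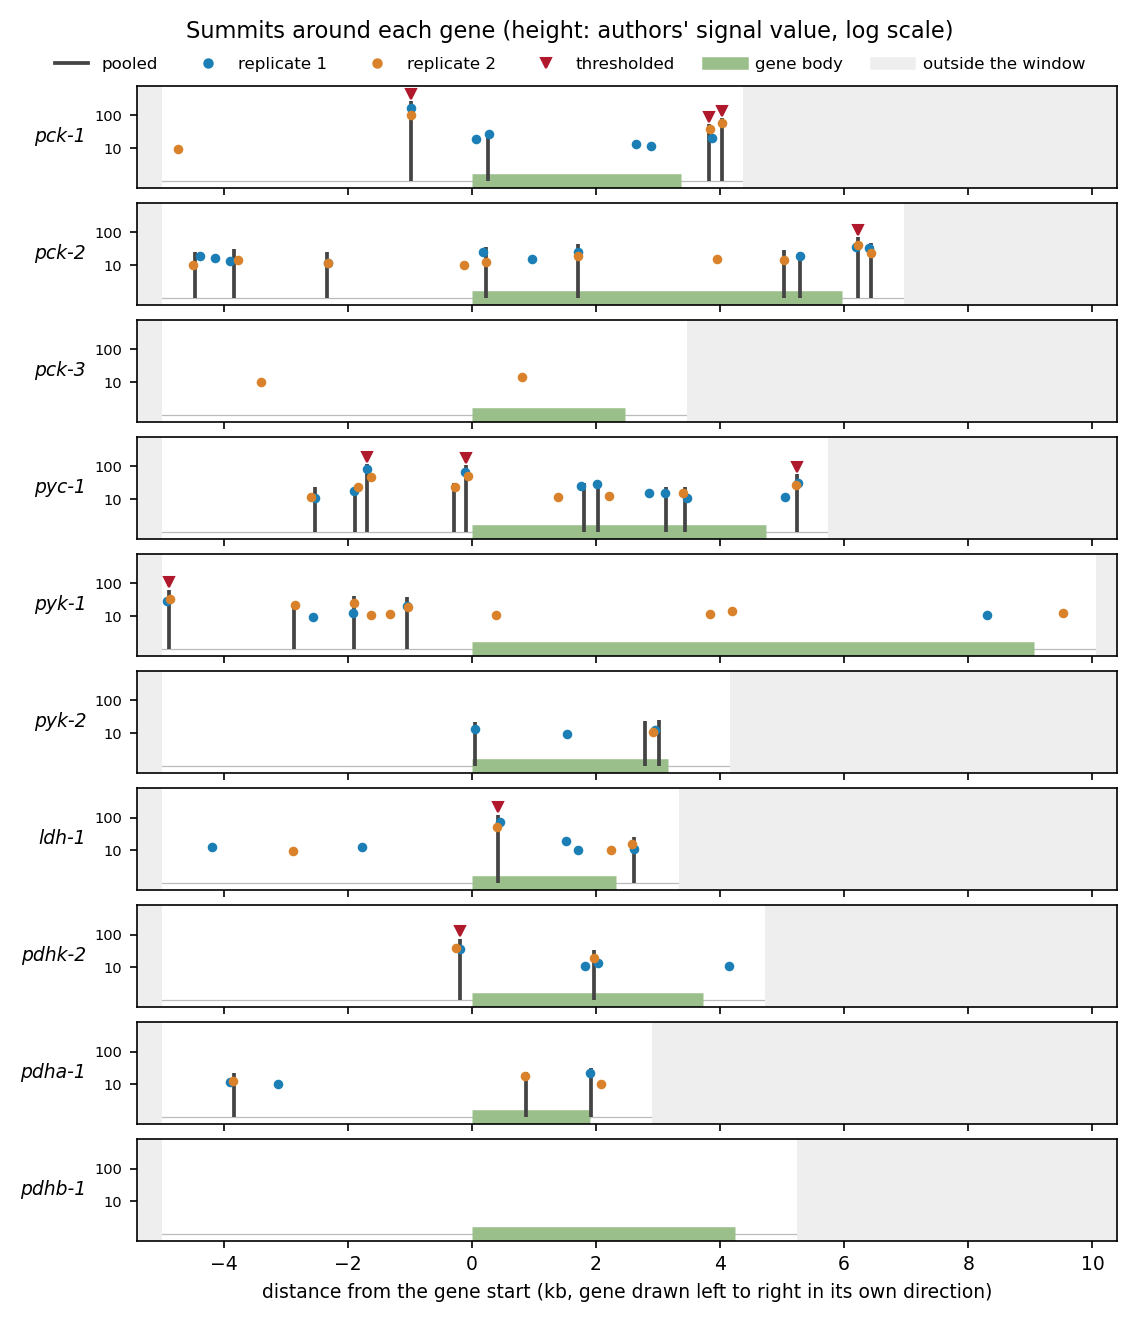
Summits around each of the 10 genes, by distance from the gene start in kb, with each gene drawn left to right in its own direction. Line height and point height give the authors' signal value on a log scale, triangles mark thresholded summits, and grey areas lie outside the gene window. The thresholded summits of pck-1, pyc-1, ldh-1 and pdhk-2 include one near the gene start, and those of pck-2 and pyk-1 lie past the gene end and 4876 bp upstream.

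Ordered by their strongest thresholded summit, the genes were pck-1 (signal 272), ldh-1 (122.6), pyc-1 (120.1), pdhk-2 (75.1), pck-2 (72.5) and pyk-1 (65.3). In both replicates pck-1 came first and pyk-1 last of the 6. The neighbours ldh-1 and pyc-1 exchanged places between the replicates, with best ranks of 107 and 96 in replicate 1 and of 165 and 184 in replicate 2. So did pdhk-2 and pck-2, with 442 and 453 in replicate 1 and 293 and 276 in replicate 2. Order within these pairs was not stable. The member summit closest above the lowest thresholded signal was the weaker one past the end of pck-1 (54.4), and the closest below was a second summit past the end of pck-2 (48.7, rank 775 in the pooled list).

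Of the 10 thresholded summits in these windows, 9 had a summit within 100 bp in both replicates, against 94.4% of the 612 nuclear thresholded summits. The exception was the stronger of the summits past the end of pck-1. Over the summits matched in both, the median ratio between the ranks of the replicates was 1.55 for the 9 summits and 1.64 for all nuclear ones. In the relaxed lists, where a summit in a gene window is common, 8 of the 10 genes had one in the pooled list (39.6% of protein-coding genes), and 8 had summits within 100 bp of each other in both replicates (24.2%). In the promoter, 4 had a replicate 1 summit with such a partner in replicate 2, pck-1, pck-2, pyc-1 and pdhk-2 (7.06%). Only the replicate 1 summit had to lie in the window. At pck-2 it lay 172 bp downstream of the gene start, and its partner, at 221 bp, lay outside the promoter. A pooled summit lay in the promoter of 4, pck-1, pyc-1, pyk-2 and pdhk-2 (12.2%). Summits were densest at pyc-1, with 1.02 per kb in replicate 1 and 0.837 in replicate 2, and at pck-2, with 0.836 in both. The median over windows of protein-coding genes was 0.124 in each replicate.

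**Figure D3:**
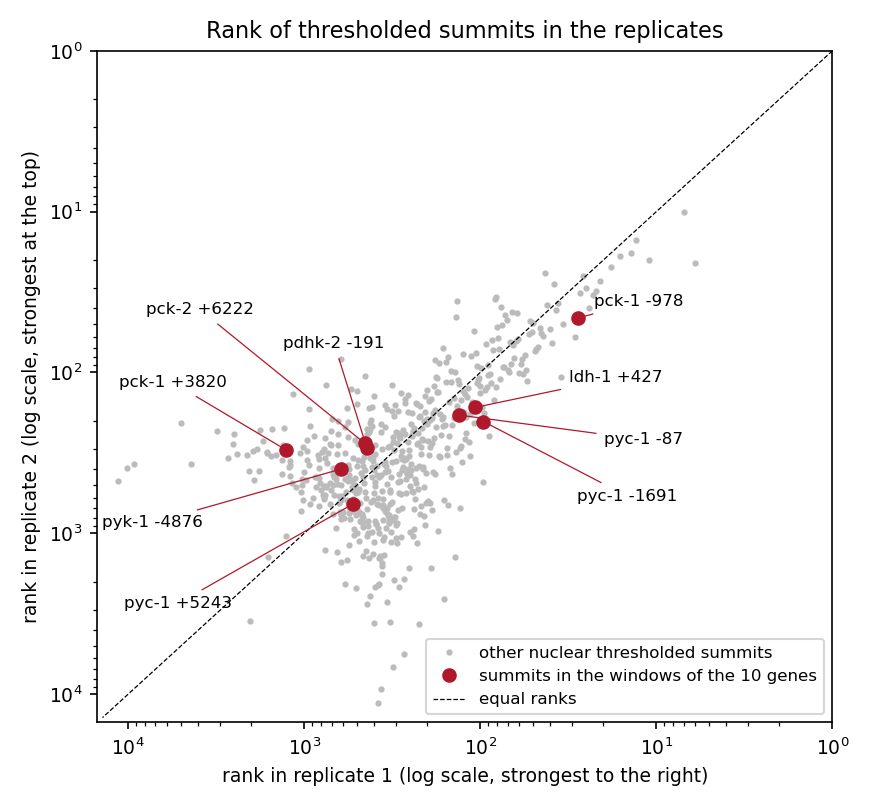
Rank of thresholded nuclear summits in replicate 1 and replicate 2 on log axes, strongest at the upper right. Red points are the 9 summits in the windows of the 10 genes that were matched in both replicates, labelled with their distance in bp from the gene start. The summit upstream of pck-1 ranks 28 and 46, and the weaker summit past its end lies far from the line of equal ranks at 1277 and 302.

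Several summits of these genes stood about 200 bp from another. The thresholded pair past the end of pck-1 was 204 bp apart, the pooled pair past the end of pck-2 was 203 bp apart, and the pyc-1 summits 87 and 1691 bp upstream had pooled companions at 202 and 199 bp. The smallest spacing between neighbouring nuclear summits was 199 bp in each of the 4 lists. In the thresholded list, 25 of the 43 spacings of up to 1000 bp (58.1%) lay between 190 and 210 bp. Whether such a pair marks separate sites was not tested, and the counts of summits given here include both.

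A core lay within 50 bp of 8 of the 10 thresholded summits, the exceptions being the pyc-1 sites 1691 bp upstream and 497 bp past the end. The share among all nuclear thresholded summits was 46.9%. In equally wide flanks, with centres 500 bp to the left and right, it was 0 of 10 and 2 of 10, against 12.1% and 15.5% for all nuclear summits. Among the strongest summits of each replicate alone, the core was at 5 of 9 in replicate 1 (without replicate 2), against 49.5% of all nuclear ones there, and at 7 of 9 in replicate 2 (without replicate 1), against 44.1%. Within 25 bp, 2 of the 10 had one, those at ldh-1 and 87 bp upstream of pyc-1, against 25.5% of all nuclear summits. Over the summits with a core within 50 bp, the median distance of the nearest core was 35 bp, against 21 bp for all such nuclear summits. With the search within 25 bp it was 12 against 9.5 bp, and with the search within 100 bp 36 against 33 bp. Within 100 bp all 10 had a core, against 67.5%. Among pooled summits in these windows that were not thresholded, 5 of 27 (18.5%) held a core, against 22.2% of all such nuclear summits.

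**Figure D4:**
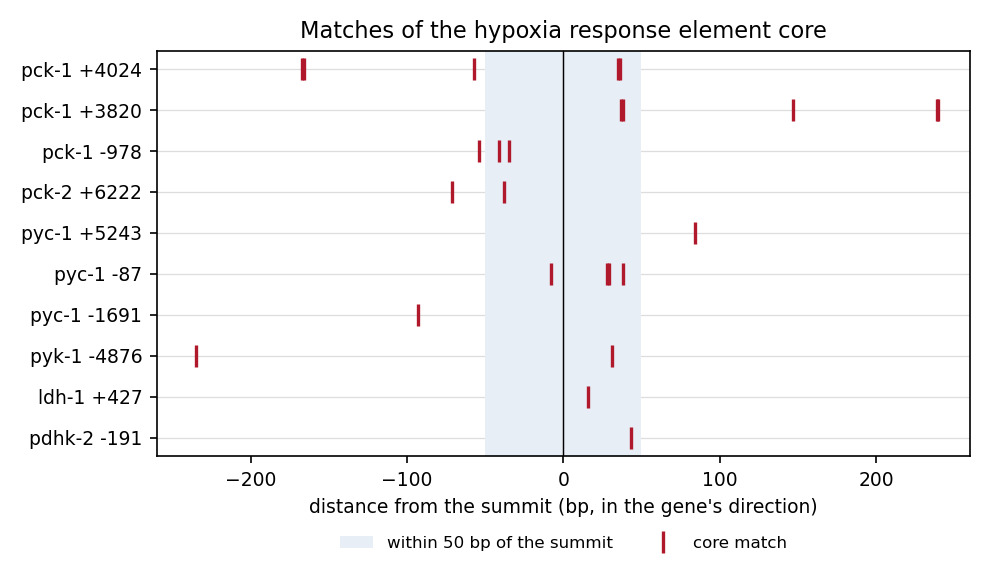
Positions of core matches, ACGTG or GCGTG on either strand, around the 10 thresholded summits, in bp from the summit in the direction of the gene. Each row is a summit, named by gene and by its distance in bp from the gene start, and the shaded band is 50 bp to either side. Of the rows, 8 have a match in the band.

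Other short sequences were looked up at the same summits. CACGTG, the E-box palindrome, which contains ACGTG on both strands, was within 50 bp of 3 of the 10 summits, those past the end of pck-1 and the pyc-1 site 87 bp upstream, against 8.33% of all nuclear thresholded summits. TACGTG, which also contains the core, was at 3, the upstream pck-1 site, the near pyc-1 site and ldh-1, against 12.9%. TGCGTC was at 3, pdhk-2, the stronger site past the end of pck-1 and the site past the end of pyc-1, against 15.7%. GAGAGA was at 1, ldh-1, against 24.7%. GC content within 50 bp had a median of 43.6% over the 10 summits, with a range of 26.7% to 56.4%, against a median of 48.5% over all nuclear ones. Across whole promoters, 6 of the 10 genes held at least 1 core, against 82.1% of nuclear protein-coding genes. The cores beside the upstream pck-1 summit fell just outside this window.

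Other genes around pyruvate and its partners, together with genes of biotin enzymes, were taken from a list of 23, of which 22 matched the annotation. A thresholded summit lay in the gene window of 8 of the 22, against 5.72% of all protein-coding genes, and in the promoter of 2, against 1.97%. Of the other genes of the pyruvate dehydrogenase complex, dlat-1, dlat-2, dld-1 and the phosphatase gene pdp-1, 0 of 4 had one, and neither had pdha-1 or pdhb-1. Beside the 5.72% of all protein-coding genes, 0 of 4 does not set the complex apart. Of the mitochondrial pyruvate carrier genes, mpc-2 had one of 55.7 and mpc-1 none. The mpc-2 summit was in an intron of unc-108 and ranked 312 in replicate 1 and 6763 in replicate 2.

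Both genes on the phosphoenolpyruvate side had a summit of their own. It lay at the fructose-1,6-bisphosphatase gene fbp-1 (77.6, 1429 bp upstream in the 3′ UTR of ptr-12, ranks of 315 and 271 in replicates 1 and 2) and at the enolase gene enol-1 (58.5, 595 bp downstream in an intron, ranks of 608 and 583), each with a core within 50 bp. Of the 8 genes of malate and oxaloacetate, the malate dehydrogenase gene mdh-1 had a summit of 153 at 836 bp upstream, with a core and ranks of 90 and 104. The summit in the window of the aminotransferase gene got-1.2 (116) lay in an intron of aak-2, and the 3 in the window of icl-1, the glyoxylate cycle gene (90.4, 86.4 and 55.4), had their nearest gene starts at srh-2 and fbxb-72, although the weakest of them lay in icl-1 coding sequence, with ranks of 404 and 3600. Of the 6 genes listed under biotin and other enzymes, 2 had one, both for subunits of propionyl-CoA carboxylase. They were pccb-1 (203.6, 674 bp downstream in an intron, ranks of 35 and 106) and pcca-1 (103, 337 bp upstream, ranks of 179 and 217), both without a core. Like pyruvate carboxylase, propionyl-CoA carboxylase is a biotin enzyme, but it does not act on pyruvate. Both genes are among the 8 of the 22 with a summit in the gene window. The remaining 14 of the 22 had none, namely those named above and men-1, mdh-2, got-2.1, got-2.2, cts-1, bpl-1, mccc-1, agxt-1 and F32D8.12.

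By rank in the replicates, the promoter summits most like that of pck-1 among 377 other genes were those of mai-1, which encodes an inhibitor of the mitochondrial ATP synthase, with ranks of 24 and 40, of taap-1, with 37 and 41, and of K01G5.10 and tasp-1, which share a summit with ranks of 25 and 30. The measure was the sum over replicates of the absolute difference in log2 rank, which was 0.42, 0.57 and 0.78.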

How the data were processed

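Chromatin immunoprecipitation of tagged HIF-1 was sequenced in 2 replicates of 1 group. Per the deposited descriptions, the authors made each relaxed list from alignments and a control, and the thresholded set from the 3 relaxed lists. Which aligner, peak caller and cut-off were used is not stated in them. Each peak has a deposited signal value, whose formula is not stated. The deposited −log10 q-value is at its ceiling for all 631 thresholded peaks and was not used. Summits are the peak start plus the deposited offset, written 1-based. Lists on ce10 were not used.

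Summits on ce11 were set against WBcel235, which is the same assembly, and Ensembl release 115 models; all peak ends lay within its chromosomes. Scripts used Python 3.11.15, numpy 2.4.6 and pandas 2.3.3, and window assignment, matching of summits and the core search were checked on simulated data. Ranks are by signal within a list. The members and lists were chosen with earlier results of these data known. Named genes are the 10, the listed pathway genes, the nearest genes of the summits, and the 3 closest in rank to the strongest promoter summit, where a tie added a gene. Genes next to other summits were named after their values were seen. No test was run. Alternatives covered windows, assignment, thresholds, search width and each replicate alone.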

Additional observations from a re-analysis of the deposited data

How the results depend on the processing

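Each count was recomputed under the alternatives set for it, and most stayed within 1.5 times the main count. Without replicate 1, and likewise without replicate 2, taking the 631 strongest summits of the other replicate, 6 of the 10 genes had a summit in the gene window (5.59% and 5.67% of protein-coding genes) and 3 in the promoter (1.85% and 1.94%), and they were the same genes as in the thresholded list. In the stronger 50% of thresholded summits 3 of the 10 had one in the window (3.01% of protein-coding genes). With the promoter window, 4 of the 10 had a pooled summit and 4 a replicate 1 summit with a replicate 2 summit within 100 bp. The core was found at 2 of the 10 thresholded summits within 25 bp, against 25.5% of all nuclear ones. Within 50 bp it was found at all 3 promoter summits, but its share over the promoter summits of all genes was not computed. Leaving out a replicate, it was found at 5 to 7 of 9 summits, with 5 in replicate 1 alone (49.5% of all nuclear summits there) and 7 in replicate 2 alone (44.1%). Of the 22 other pathway genes, 2 had a thresholded summit in the promoter (1.97% of protein-coding genes) and 5 by nearest gene start (2.74%). In the stronger 50%, 5 had one in the gene window (3.01%), as had 7 without replicate 1 (5.59%) and 8 without replicate 2 (5.67%). No paired analysis was possible because there is 1 group and no result comes from a test. The lists give no read counts, so absence of a summit is absence from these lists only.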
